A study of Mus musculus with 9 samples.

Results

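The cytosolic ribosome is built from ribosomal RNA and a set of proteins made in near-equal numbers, and the genes of those proteins were followed here in mouse embryonic stem cells that had lost Taz or both Yap and Taz. Members were all rows of the deposited table named Rpl or Rps with digits and at most a final a or x, plus the stalk genes Rplp0, Rplp1 and Rplp2, with a mean of at least 1 FPKM over 9 libraries. FPKM, fragments per kilobase of gene scaled by depth, is the authors' unit. The rule left out pseudogene rows and the Rps6k kinases and found 75 genes among 38940 rows, of which 46 encode large-subunit and 29 small-subunit proteins. All 75 were among the 11674 genes tested, and the level limit removed no gene whose name matched.

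The series compares mouse embryonic stem cells of 3 genotypes, with 3 poly(A)-selected RNA-seq libraries each, to learn what the Hippo pathway co-activators YAP and TAZ do in these cells. In the double KO group both Yap and Taz were deleted according to title and description, although the genotype field gives a floxed Yap and a deleted Taz for those libraries. The Taz KO group had Taz deleted and Yap floxed, and in the control group both genes were floxed. Every group was grown on fibronectin in N2B27 with Lif (4 ng/ml), PD0325901 (0.4 µM) and CHIR99021 (3 µM), inhibitors of MEK and GSK3 that hold cells in naive pluripotency. A Cre-ERT2 transgene under the broadly active CAG promoter, inserted by piggyBac, was induced with 500 nM 4-OHT, a tamoxifen metabolite. The treatment text is the same for all 9 libraries and does not single out the control cells, whose genes are labelled floxed and not deleted. The labels do not say whether lines were clones or whether replicates were separate cultures, so a p-value reflects the spread among these libraries and no more.

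Yap1 was at 4.14, 3.98 and 4.62 FPKM in the double KO libraries, 18.6, 17.9 and 18.5 FPKM in the Taz KO libraries and 18.1, 18.1 and 19.1 FPKM in the control libraries. Wwtr1, which encodes TAZ, was at 14.7, 13.2 and 13.9 FPKM in double KO. It was at 11.6, 9.03 and 11.9 FPKM in Taz KO and 12.4, 12.7 and 11.1 FPKM in control. The double KO values lay above all others without passing the test (limma adjusted p = 0.22 against control and 0.0657 against Taz KO). Taz KO overlapped control. The whole-gene level of Wwtr1 did not set both Taz-deleted groups below control and does not check the Taz labels. All 10 embryonic stem cell markers examined were at 35.8 FPKM or more in every library. Their summed level was 2387 to 2710 FPKM in double KO, 3961 to 4323 FPKM in Taz KO and 4749 to 5085 FPKM in control. Most of that difference was in Dppa5a, at 1031 to 1260.1 FPKM in double KO, 2403 to 2696 FPKM in Taz KO and 3147.5 to 3441 FPKM in control. The other 9 summed to 1356 to 1449.7 FPKM in double KO, 1557 to 1628 FPKM in Taz KO and 1591.5 to 1645 FPKM in control. In double KO against control Dppa5a, Klf4, Sox2 and Nanog were lower and Zfp42 was higher. Of 10 fibroblast markers, 8 stayed below 1 FPKM in every library, Dcn, Lum and Postn were listed at 0 throughout, and the fibroblast sums ranged over 3.49 to 11.4 FPKM in double KO, 1.85 to 6.23 FPKM in Taz KO and 2.36 to 4.45 FPKM in control. Summed trophectoderm markers were at 17.1 to 34.9 FPKM in double KO, 14.5 to 23.2 FPKM in Taz KO and 16.6 to 20.5 FPKM in control, and primitive endoderm markers at 2.00 to 3.76 FPKM in double KO, 1.36 to 3.15 FPKM in Taz KO and 1.94 to 2.84 FPKM in control. Mitochondrial genes took 4.64 to 4.86% of reads in double KO, 3.91 to 4.25% in Taz KO and 3.57 to 4.45% in control. Whether these differences play a part in the results that follow was not tested.

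Ribosomal protein mRNAs are among the most abundant messages of a growing cell. Most of them start with a C followed by a run of pyrimidines, the terminal oligopyrimidine or TOP motif, through which the mTORC1 pathway and LARP1 control how strongly they are translated, mainly without changing how much of the message there is. Embryonic stem cells divide fast and keep ribosome production high, and many of these proteins, left unassembled, are degraded. A few have roles outside the ribosome, such as the binding of Mdm2 by Rpl5 and Rpl11, which stabilises p53.

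Annotated starts of part of the genes hold the sequence this family is known for. RefSeq promoter records on GRCm38.p6 were matched by symbol to 55 of the 75 genes. A run of 5 or more C or T within 10 bases of an annotated start was present in 33 of the 55 (60.0%), against 37.7% of 27025 genes with a record. The stricter TOP-like pattern, a C within 3 bases of the start followed by 4 or more C or T, was found in 23 of the 55 (41.8%), against 13.5% of all genes. The letters CGGAAG on either strand, the core that ETS-family factors such as GABPA recognise, occurred in the 300-base promoter of 38 genes (69.1%), against 18.8% of all genes. The TEAD motif GGAATG on either strand, the letters bound by the partners of YAP and TAZ, occurred in 6 genes (10.9%), against 16.6% of all genes. These matches describe letters in the window and say nothing of binding.

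Windows of 30 bases around the annotated start, 15 before it and 15 from it onward, are shown for 5 genes that were lower in double KO and hold a pyrimidine run, then for 2 such genes without one, then for 3 with a run whose test was not passed. They allow the letters to be set beside the fold changes given below. Capitals mark the longest run of at least 5 C or T that comes within 10 bases of the start, and the start shown for Rpl35a and Rpl19 is 1 of several annotated. The windows are chr2:26910792-26910821 (plus strand), chr7:109519180-109519209 (plus strand), chr11:114668565-114668594 (plus strand), chr16:33056467-33056496 (plus strand), chr11:98026909-98026938 (plus strand), chr10:128549154-128549183 (minus strand), chr4:136053379-136053408 (minus strand), chr7:4792950-4792979 (plus strand), chr7:3704026-3704055 (plus strand) and chr4:86857353-86857382 (minus strand), each written on the strand of its gene.
Rpl7a: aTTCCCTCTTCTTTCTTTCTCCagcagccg
Rpl27a: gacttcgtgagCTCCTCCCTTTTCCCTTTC
Rpl38: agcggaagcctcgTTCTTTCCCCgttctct
Rpl35a: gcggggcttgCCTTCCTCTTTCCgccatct
Rpl19: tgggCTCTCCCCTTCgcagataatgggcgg
Rpl41: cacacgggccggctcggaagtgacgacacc
Rpl11: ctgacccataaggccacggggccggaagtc
Rpl28: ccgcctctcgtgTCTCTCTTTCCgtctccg
Rps9: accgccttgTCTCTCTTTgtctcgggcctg
Rps6: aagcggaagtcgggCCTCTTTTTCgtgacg
Rpl7a carries 21 pyrimidines in a row across its start, and Rpl27a carries 19 within the window. Rpl41, which had the lowest fold change of the family in double KO, has no such run at its annotated start, and neither has Rpl11. Rps6, whose protein is the classical substrate of S6 kinase, has a run of 10 that begins 1 base before the start and did not pass the test.

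Ribosomal protein genes took 13.2, 13.9 and 12.9% of the summed FPKM in the double KO libraries, 13.98, 14.1 and 13.4% in the Taz KO libraries and 14.8, 13.6 and 14.3% in the control libraries. Their summed level was 47184 ± 1081 FPKM in double KO, 51706 ± 2368 FPKM in Taz KO and 53146 ± 3766 FPKM in control (SD, n = 3 each). The median gene of the family stood at 495 FPKM over all libraries, with 11 genes at 1000 FPKM or more, 62 between 100 and 1000 FPKM and 2 below 100 FPKM.

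The 5 highest were Rplp1, an acidic protein of the stalk that recruits elongation factors, Rps12 of the small subunit, Rpl4, which lines the exit tunnel of the nascent chain, Rpl8, which lies by the peptidyl transferase centre, and Rpl32 of the large subunit. Rpl4 was at 2135, 2188 and 2039 FPKM in double KO, 2279.9, 2286 and 2179.9 FPKM in Taz KO and 2348, 2213 and 2359 FPKM in control. Rps12 was at 2746, 2490.5 and 2571 FPKM in double KO, 2674, 2316 and 2479.9 FPKM in Taz KO and 2922, 2394 and 2788 FPKM in control. The ranges of the 3 groups overlapped for Rps12, and for Rpl4 the double KO libraries lay below the control libraries without passing the test (adjusted p = 0.233).

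The lowest row was that named Rpl24, a protein of an intersubunit bridge, at 7.30, 5.72 and 6.80 FPKM in double KO, 7.26, 6.19 and 7.36 FPKM in Taz KO and 7.34, 7.02 and 8.48 FPKM in control, on 993 to 1302 reads per library. Its log2 fold change between double KO and control was -0.19 (adjusted p = 0.238, with the replicate block 0.0455). The table also holds a row named RPL24, in capitals, which the naming rule did not take in. That row was at 168, 146 and 144 FPKM in double KO, 195, 163 and 177 FPKM in Taz KO and 199, 173 and 171 FPKM in control, on 2907 to 4899 reads. Its log2 fold change between double KO and control was -0.25 (adjusted p = 0.108, with the replicate block 0.00282). The gene length that the deposited values imply was 7440 bases for the row Rpl24 and 1030 bases for the row RPL24. The union of the exons of Rpl24 in the GENCODE M21 annotation is also 1030 bases. Which reads each row counted is not given in the sources used here. Rpl35a, Rps15a, Rps19 and Rpl15 came next. Over the family the implied length ran from 255 bases (Rps27) to 7440, equalled the exon union for 35 genes, was shorter for 35 and longer for 5. Level and implied length had a Spearman correlation of -0.73 across the 75 genes, a description of genes that share libraries and whose FPKM is itself divided by length. Per-length levels therefore do not show that the encoded proteins were made in unequal numbers.

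The genes moved together between libraries. Each gene's deviation from its own mean over the 9 libraries, on the log2(FPKM + 0.5) scale, had a median of -0.07, -0.11 and -0.12 in double KO 1, 2 and 3, of 0.08, -0.04 and 0.05 in Taz KO 1, 2 and 3, and of 0.13, -0.05 and 0.16 in control 1, 2 and 3. Control 2 and Taz KO 2 thus stood below the other libraries of their groups, and control 2 lay nearer to double KO 1 than to control 1 or control 3. The highest value of 48 genes was in control 3 and that of 20 in control 1, and the lowest was in double KO 3 for 32 genes, in double KO 2 for 24 and in control 2 for 13. The coefficient of variation over the 3 libraries had a median of 3.53% in double KO, 5.19% in Taz KO and 8.17% in control. The correlation of a gene's log2 levels with the mean of the other members over the 9 libraries had a median of 0.88, and was over 0.8 for 49 genes. It was lowest for Rps19 (-0.34), the gene most often mutated in human Diamond-Blackfan anaemia. The 9 libraries include the differences between groups, and no such median was computed for other genes. The 5 genes outside the family whose log2 levels followed the members' mean most closely over the 9 libraries were AI462493 and Ubxn1 (Pearson r = 0.98 each), and Rer1, Fancl and Psmg1 (0.97 each). For the 440 other tested genes with a mean of at least 100 FPKM, the median deviation was -0.06, -0.31 and -0.10 in double KO 1, 2 and 3. It was 0.18, -0.12 and 0.18 in Taz KO 1, 2 and 3, and 0.13, -0.01 and 0.17 in control 1, 2 and 3. Library 2 of Taz KO and of control stood low there too, so that pattern is not particular to the family.

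**Figure D1:**
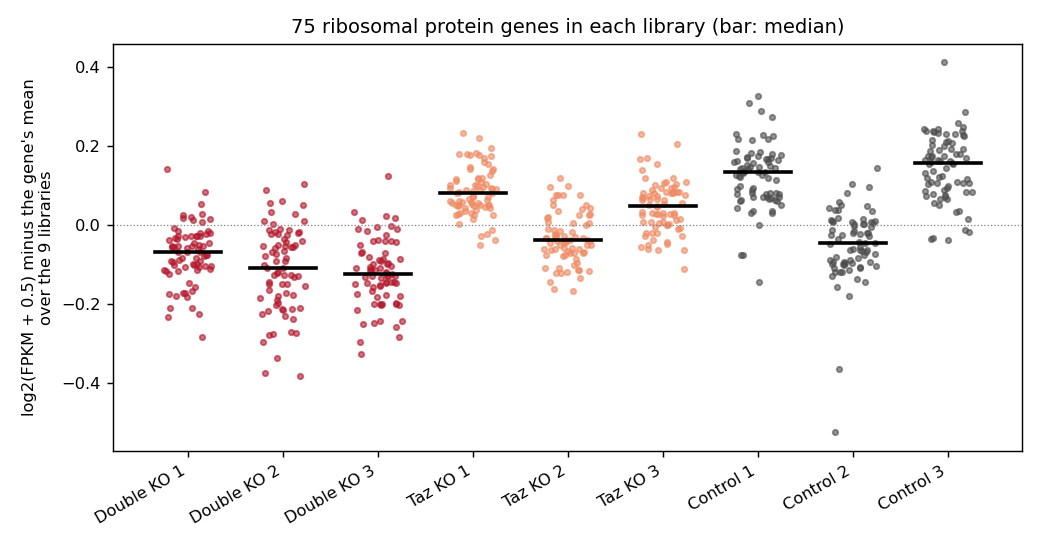
Each point is 1 of the 75 genes in 1 library, as log2(FPKM + 0.5) minus the gene's mean over the 9 libraries, and the bar is the median. The medians of the 3 double KO libraries lie between -0.07 and -0.12, while control 2 (-0.05) lies apart from control 1 (0.13) and control 3 (0.16).

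Set against control, double KO cells had lower levels of part of the family. By limma with Benjamini-Hochberg adjustment over the 11674 genes, 18 of the 75 were lower and 0 higher at an adjusted p under 0.05, where 12.9% of all tested genes were lower and 12.4% higher. At an unadjusted p under 0.05, 25 were lower and 1 was higher (20.4% and 19.1% of all tested genes), and voom on recovered reads called 19 lower and 0 higher (13.0% and 12.8%). The 18 fell to between 0.705 and 0.839 of the control level. The fold change was negative for 71 of 75 genes, with a median of -0.16 on the log2 scale against -0.02 over all tested genes, but after quantile normalization the median was -0.01, 39 were negative, and the calls were 9 lower (13.8% of all tested genes) and 2 higher (1640 of the 11674). At an equal sum of FPKM in every library, 16 were lower (11.4% of all tested genes) and 1 was higher (16.5%), with a median of -0.09. In double KO, 29 genes had every value below every control value and 2 had every value above, against 23.8% and 21.7% of all tested genes.

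Other abundant genes were also lower. The 440 other tested genes with a mean of at least 100 FPKM included the row RPL24. Their median log2 fold change between double KO and control was -0.25. Of them 112 (25.5%) were lower and 28 higher, beside 24.0% of the family called lower. After quantile normalization their median was -0.035, and at an equal sum of FPKM -0.17. Every double KO value lay below every control value for 48.0% of them, and above for 10.7%. In the family these shares were 38.7% and 2.67%. The differences between the family and these genes were not tested. FPKM compares a gene with the rest of the RNA, so fewer cells with high levels and less message per cell cannot be told apart, and the amount of RNA per cell was not measured.

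Libraries with the same replicate number deviated from their group means together. With the number as a block 37 members were lower and 1 was higher, against 28.1% and 24.2% of all tested genes. Of the 440 other genes at 100 FPKM or more, the block called 267 lower and 56 higher. Without the 3 libraries numbered 2, an alternative chosen after the data were seen, 52 members were lower (22.5% of all tested genes) and 1 was higher (19.4%). Leaving out 1 library at a time gave 6 to 22 lower: 10, 10 and 8 when double KO 1, 2 or 3 was left out, 14, 20 and 11 for Taz KO 1, 2 or 3, and 6, 22 and 8 for control 1, 2 or 3. Rpl22, Rpl27a, Rpl29, Rpl36, Rpl41 and Rps2 were called in all 9 of these fits. After quantile normalization 11 of the 18 lost the call, Rpl22, Rpl27a and Rpl29 among them. The others were Rpl9, Rpl11, Rpl19, Rpl27, Rpl35a, Rplp1, Rps21 and Rps25. With no filter on low values 12 of the 18 lost it, Rpl36, Rps2 and Rpl38 among them. Of the genes called in all 9 fits, only Rpl41 kept the call under both of these alternatives.

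**Figure D2:**
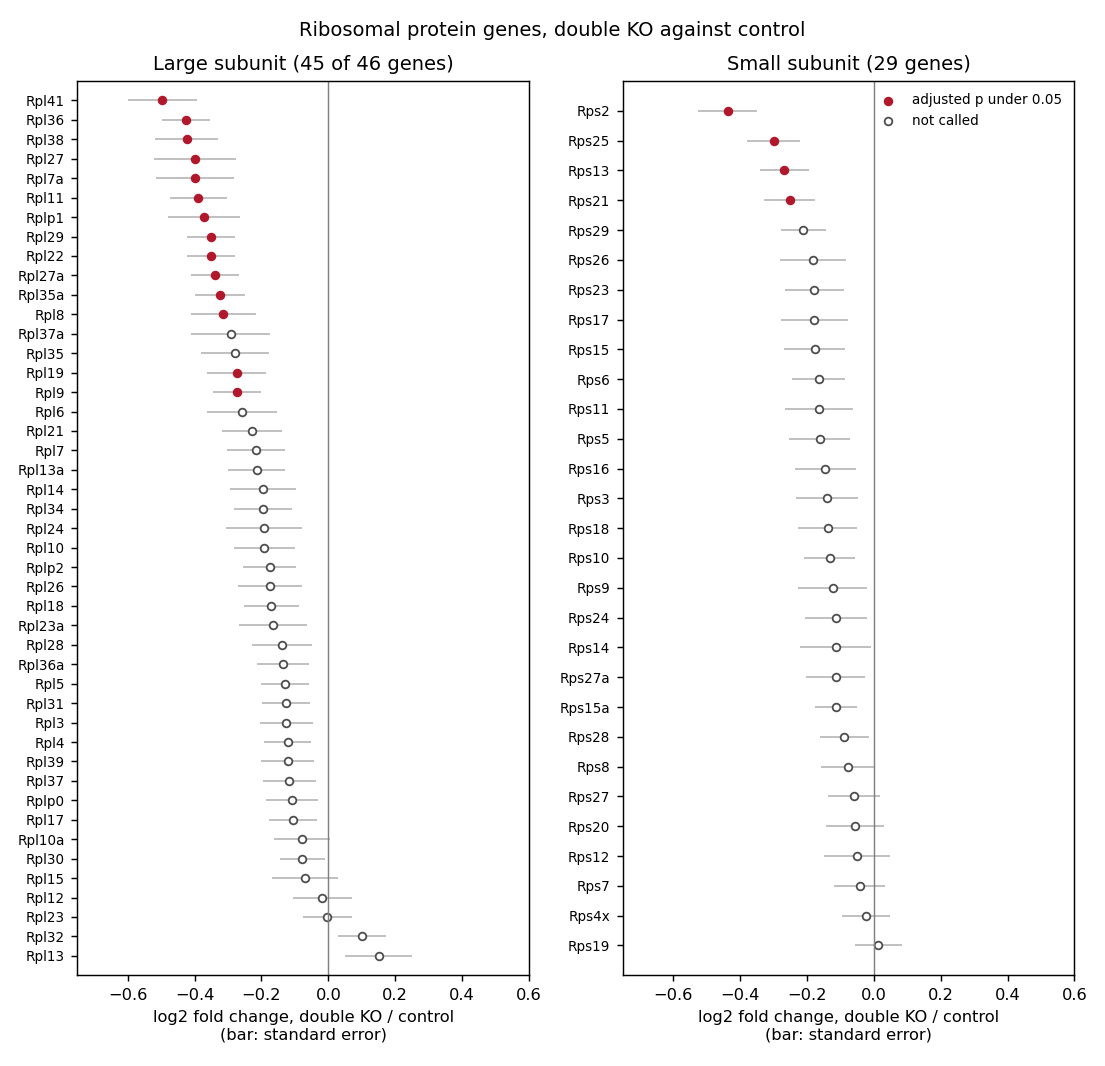
Points give the log2 fold change of double KO over control for 45 of the 46 large-subunit genes (left) and the 29 small-subunit genes (right), bars the standard error, and filled points an adjusted p under 0.05. The fold change is negative for 71 of the 75 genes (39 after quantile normalization), and the 18 called range from -0.50 (Rpl41) to -0.25 (Rps21).

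In the large subunit 14 of 46 genes (30.4%) were lower in double KO than in control. The share over all tested genes was 12.9%. Rpl41 (ENSMUSG00000093674, chromosome 10, 128548114 to 128549305, minus strand on GRCm38) encodes the smallest ribosomal protein, a short basic peptide. It was at 448, 417 and 445 FPKM in double KO, 562, 501 and 572 FPKM in Taz KO and 611, 545 and 701 FPKM in control. The double KO values lay below all others, and the fold against control was 0.705 (log2 fold change -0.50, SE 0.10, adjusted p = 0.00972, limma, lower in 3 of 3 libraries). Rpl36 (ENSMUSG00000057863, chromosome 17, 56613416 to 56614243, plus strand) had the smallest adjusted p of the family. Its level was 662, 693 and 657 FPKM in double KO, 893, 842 and 876 FPKM in Taz KO and 906, 854 and 945 FPKM in control, and it fell to 0.744 of control (log2 fold change -0.43, SE 0.07, adjusted p = 0.00381). The Taz KO and control libraries overlapped for both genes.

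Rpl38, which mice need for normal patterning of the axial skeleton, was at 391, 373 and 381 FPKM in double KO, 512, 437 and 479 FPKM in Taz KO and 553, 458 and 531 FPKM in control (log2 fold change -0.42, SE 0.09, adjusted p = 0.0126 against control). Rpl27, also of the large subunit, was at 163, 141 and 162 FPKM in double KO, 209, 170.5 and 212 FPKM in Taz KO and 214, 179 and 224 FPKM in control (log2 fold change -0.40, SE 0.12, adjusted p = 0.042). Within each of the 3 groups its lowest value was in library 2, and double KO still lay below every other library. Rpl7a, with the long pyrimidine run shown above, was at 534, 464 and 524 FPKM in double KO, 707, 563 and 676 FPKM in Taz KO and 703, 591 and 715 FPKM in control (log2 fold change -0.40, SE 0.12, adjusted p = 0.0366). Rpl27 and Rpl7a lost the call in every fit without a double KO library and in those without control 1, control 3 or Taz KO 3, and Rpl27 also without Taz KO 1. Rpl38 lost it without control 1.

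Rpl29, whose loss leaves mice viable but small, was at 258, 261 and 263 FPKM in double KO, 324, 306 and 325 FPKM in Taz KO and 339.8, 310.1 and 349.6 FPKM in control. Its double KO values spanned less than 5 FPKM, and the log2 fold change against control was -0.35 (SE 0.07, adjusted p = 0.00901). Rpl22, which mice can live without but their developing αβ T cells need, was at 192, 199 and 186 FPKM in double KO, 235, 234 and 229 FPKM in Taz KO and 253, 228 and 256 FPKM in control (log2 fold change -0.35, SE 0.07, adjusted p = 0.00928). Rpl27a, the gene with 19 pyrimidines across its start, was at 220.0, 219 and 213 FPKM in double KO, 258, 269.6 and 239.6 FPKM in Taz KO and 272, 267 and 287 FPKM in control (log2 fold change -0.34, SE 0.07, adjusted p = 0.0105). In all of them the double KO libraries lay below all 6 others. The remaining called genes of the large subunit were Rpl35a (-0.32), Rpl8 (-0.31), Rpl19 (-0.27), which takes part in a bridge between the subunits, and Rpl9 (-0.27), beside Rpl11 and Rplp1 described below. Of the 9 fits without 1 library, Rpl8 and Rpl19 each lost the call in 7 (all but those without Taz KO 2 or control 2), Rpl9 in 4 (without double KO 1 or 3, or control 1 or 3) and Rpl35a in 3 (without double KO 3, or control 1 or 3). Among the large-subunit genes that missed the threshold, Rpl37a (log2 fold change -0.29, adjusted p = 0.102) and Rpl35 (-0.28, adjusted p = 0.0732) had values below all control values in each double KO library, and with the replicate block both passed (adjusted p = 0.00308 for Rpl37a and 0.00372 for Rpl35). With the block 26 of the 46 were lower and 1 was higher, against 28.1% and 24.2% of all tested genes.

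**Figure D3:**
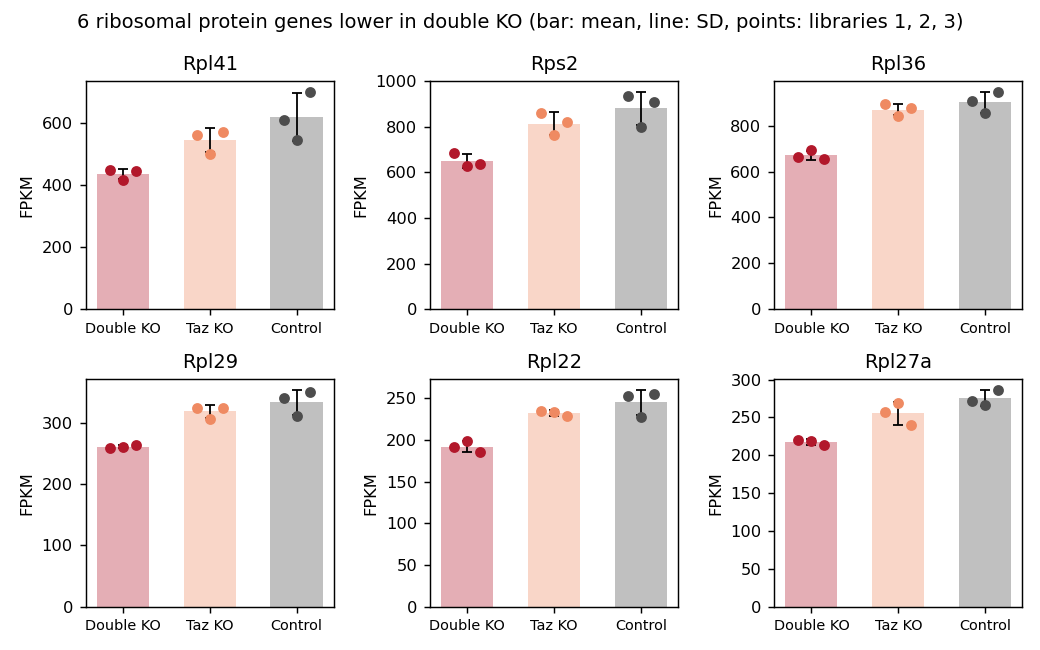
FPKM of 6 genes by group, with the mean (bar), SD (line) and libraries 1, 2 and 3 (points, left to right), for the genes that were called lower in double KO in all 9 fits without 1 library. In each panel the double KO points lie below every Taz KO and control point, and Taz KO and control points overlap. Only Rpl41 of these genes kept the call both after quantile normalization and with no filter on low values.

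Of the 29 small-subunit genes, 4 (13.8%) were lower in double KO than in control. That share was near the 12.9% of all tested genes. Rps2 (ENSMUSG00000044533, chromosome 17, 24718116 to 24721929, plus strand), which lies at the entry of the mRNA channel, was at 683, 629.6 and 636 FPKM in double KO, 861, 762 and 819 FPKM in Taz KO and 936, 799 and 908 FPKM in control. It fell to 0.737 of the control level (log2 fold change -0.44, SE 0.09, adjusted p = 0.00838), again with no overlap. Rps25, which some viral messages need to start translation, was at 837, 797 and 849.9 FPKM in double KO, 1016, 944 and 1003 FPKM in Taz KO and 1023, 945 and 1091 FPKM in control (log2 fold change -0.30, SE 0.08, adjusted p = 0.0252). Rps13 (log2 fold change -0.27) and Rps21 (-0.25) were the others called. Rps25 lost the call in each fit without a double KO library, control 1 or control 3. Rps13 lost it in these and without Taz KO 3, and Rps21 in these and without Taz KO 1 or Taz KO 3. Rps6 was at 344, 344 and 339 FPKM in double KO, 382, 361 and 384 FPKM in Taz KO and 389.6, 351 and 414 FPKM in control and did not pass (log2 fold change -0.16, SE 0.08, adjusted p = 0.154), except with the replicate block (adjusted p = 0.0388), which called 11 of the 29 lower (28.1% of all tested genes). Rps19 differed by a log2 fold change of 0.01 (adjusted p = 0.904). The median log2 fold change was -0.19 over the 46 large-subunit genes and -0.14 over the 29 small-subunit genes. The difference between the subunits was not tested.

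The stalk of the large subunit is a pentamer of Rplp0 with pairs of Rplp1 and Rplp2. Rplp1 was at 2923, 2616 and 2424 FPKM in double KO, 3439, 2974 and 2908 FPKM in Taz KO and 3765, 3359 and 3178 FPKM in control (log2 fold change -0.37, SE 0.11, adjusted p = 0.0359 between double KO and control). It was lowest in library 3 of each group, and its call was lost at an equal sum of FPKM, after quantile normalization, without the 3 libraries numbered 2 and in 6 of the 9 fits without 1 library (all but those without double KO 1, Taz KO 1 or Taz KO 2). Rplp0, the scaffold, was at 1339, 1293 and 1227 FPKM in double KO, 1348, 1225 and 1260.4 FPKM in Taz KO and 1456, 1317 and 1387 FPKM in control (log2 fold change -0.11, SE 0.08, adjusted p = 0.332). Rplp2 was at 379, 361 and 354 FPKM in double KO, 420.4, 383 and 399 FPKM in Taz KO and 441, 386 and 409.9 FPKM in control, and its double KO values lay below both other groups although it missed the threshold (adjusted p = 0.13), which it passed with the replicate block (adjusted p = 0.0137).

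Of the 7 members known to bind Mdm2, 1 (14.3%) was lower in double KO. That share was near the 12.9% of all tested genes, and the median log2 fold change was -0.13. The gene was Rpl11 (ENSMUSG00000059291, chromosome 4, 136028265 to 136053428, minus strand), at 195, 183 and 187 FPKM in double KO, 249.8, 221 and 233 FPKM in Taz KO and 259, 223 and 259 FPKM in control (log2 fold change -0.39, SE 0.09, adjusted p = 0.0123). Its call was lost in the fit without control 1. Rpl5, which joins Rpl11 and the smallest ribosomal RNA in the complex that binds Mdm2, was at 261, 271 and 248 FPKM in double KO, 287, 276 and 279.7 FPKM in Taz KO and 289, 269.5 and 295 FPKM in control and did not pass (log2 fold change -0.13, SE 0.07, adjusted p = 0.206). Rpl5 overlapped between double KO and control, where Rpl11 did not. Of 11 members whose human counterparts are mutated in Diamond-Blackfan anaemia, 2 (18.2%) were lower, Rpl11 and Rpl35a. With the block 4 were lower, beside 28.1% of all tested genes. Rpl35a was at 76.5, 75.6 and 73.8 FPKM in double KO, 89.8, 82.3 and 85.7 FPKM in Taz KO and 96.0, 87.4 and 100.1 FPKM in control (log2 fold change -0.32, SE 0.07, adjusted p = 0.0149).

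Loss of Yap on top of Taz was addressed by setting double KO against Taz KO. Here 5 of 75 genes were lower and 0 higher by limma, where 7.45% of all tested genes were lower and 6.42% higher, so the share of the family (6.67%) was near the background. They were Rpl36 (log2 fold change -0.38, adjusted p = 0.0129), Rps2 (log2 fold change -0.32, adjusted p = 0.0423), Rpl11 (log2 fold change -0.32, adjusted p = 0.0421), Rpl29 (log2 fold change -0.29, adjusted p = 0.0326) and Rpl22 (log2 fold change -0.27, adjusted p = 0.0378), each lower in 3 of 3 libraries. At an unadjusted p under 0.05 the counts were 15 lower and 0 higher (17.0% and 13.4% of all tested genes), and voom on recovered reads called 5 lower and 0 higher (7.37% and 6.6%). The fold change was negative for 69 genes with a median of -0.12, against -0.04 over all tested genes. After quantile normalization the median was -0.003 with 39 negative, and at an equal sum of FPKM -0.05 with 52 negative. Values did not overlap for 36 genes that were lower in double KO and for 0 that were higher, against 16.5% and 14.1% of all tested genes. With the replicate block 25 were lower and 0 higher (25.6% and 16.8% of all tested genes), and without the libraries numbered 2 the counts were 33 lower and 0 higher (22.1% and 14.5%). Leaving out 1 library gave 0 to 10: 0, 2 and 0 when double KO 1, 2 or 3 was left out, 0, 10 and 0 for Taz KO 1, 2 or 3, and 1, 7 and 2 for control 1, 2 or 3.

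Taz KO against control gave no call in the family. By limma 0 of 75 genes were lower and 0 higher, where 0.565% of all tested genes were lower and 0.72% higher. With shares that low, 0 calls among 75 genes say little. At an unadjusted p under 0.05, 0 were lower and 3 higher (4.81% and 8.03% of all tested genes), and voom on recovered reads called 0 in either direction (0.642% and 0.865%). The median log2 fold change was -0.05, with 64 of 75 negative, against 0.01 over all tested genes. Rpl13 and Rpl32 were among those with an unadjusted p under 0.05, higher in Taz KO than in control in 3 of 3 libraries each. Of the family 3 genes were higher and 0 lower with the replicate block (7.78% and 4.05% of all tested genes), 2 were higher after quantile normalization (1.11%), and 1 was higher and 0 lower without the libraries numbered 2 (2.42% and 1.2%). Among those that passed with the block, Rpl13 had an adjusted p of 0.0194 and Rpl32 of 0.049.

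Rpl13 and Rpl32 lie on chromosomes 8 and 6, where tested genes as a whole stood higher in both mutant groups. The median log2 fold change of the 671 tested genes on chromosome 8 was 0.30 in double KO and 0.35 in Taz KO against control. On chromosome 6 (522 genes) it was 0.19 in double KO and 0.21 in Taz KO. The 398 genes of chromosome 14 had 0.11 in double KO and 0.10 in Taz KO, and the 9998 genes elsewhere -0.05 in double KO and -0.01 in Taz KO. Both comparisons share the control libraries.

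Rpl13 (ENSMUSG00000000740, chromosome 8, 123102350 to 123105244, plus strand), also of the large subunit, was at 474, 447 and 473 FPKM in double KO, 543, 497 and 519 FPKM in Taz KO and 442, 361 and 460.0 FPKM in control. Taz KO lay above both other groups, and double KO overlapped control (log2 fold change 0.15, adjusted p = 0.294). Rpl32 (ENSMUSG00000057841, chromosome 6, 115805505 to 115808747, minus strand) was at 2108, 2099 and 2088 FPKM in double KO, 2251, 2169 and 2309.6 FPKM in Taz KO and 1989, 1849 and 2042 FPKM in control, so that control was lowest and Taz KO highest with no overlap between groups. On chromosome 14, Rpl15 was at 136, 125 and 127 FPKM in double KO, 152, 124 and 143 FPKM in Taz KO and 142, 124 and 142 FPKM in control, and Rps24 at 934, 902 and 849.5 FPKM in double KO, 1042, 937 and 949 FPKM in Taz KO and 993, 869 and 1051 FPKM in control. Both overlapped between double KO and control. Of the 70 members on other chromosomes, 69 had a negative fold change in double KO against control, with a median of -0.17, and the exception was Rps19. How far the chromosome differences set the levels of the genes on chromosomes 8, 6 and 14 was not tested.

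**Figure D4:**
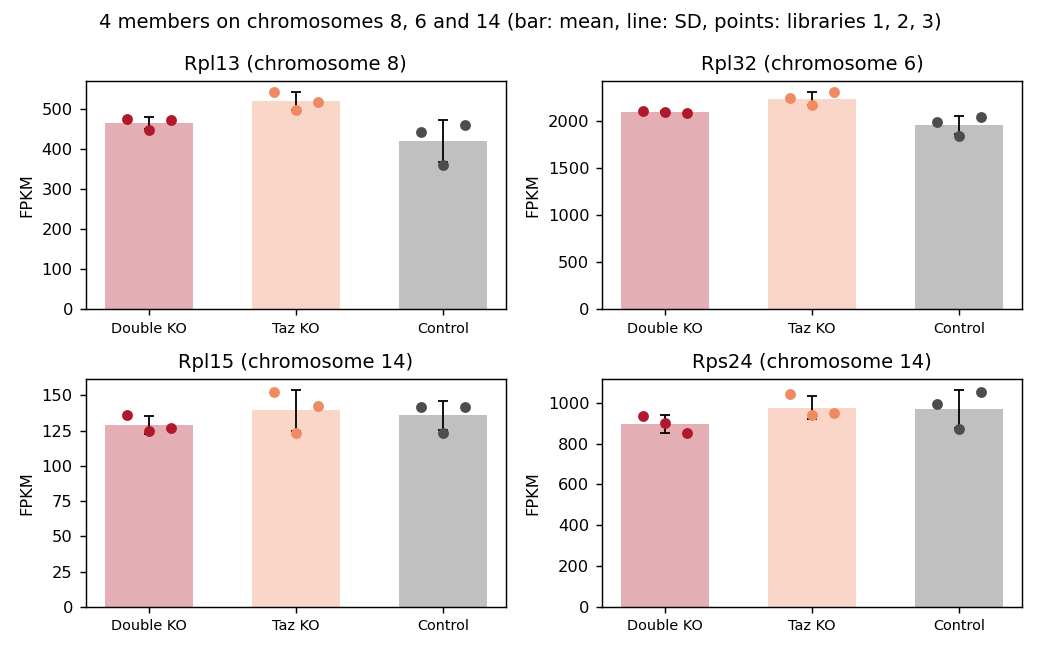
FPKM of 4 genes on chromosomes 8, 6 and 14 by group, with the mean (bar), SD (line) and libraries 1, 2 and 3 (points, left to right). For Rpl32 the double KO and Taz KO points lie above every control point, while for Rpl15 and Rps24 the double KO points overlap the control points.

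Of the ribosomal protein genes that the rule left out, 7 were tested as a list, among them Rpsa, Fau, Gnb2l1, Rps3a1, Rps3a2 and Rps3a3. The row RPL24, given above, is not in it. In double KO against control 0 were called by limma and 0 by voom. With 12.9% of all tested genes lower and 12.4% higher by limma, 0 of 7 says little. The fold change was negative for 6 of the 7. At an unadjusted p under 0.05, 1 was lower, where 20.4% of all tested genes were. That gene was Fau (log2 fold change -0.22, adjusted p = 0.0864, with the replicate block 0.0258), whose double KO values lay below all control values. Gnb2l1, the scaffold protein RACK1 on the small subunit, was at 456, 462 and 423 FPKM in double KO, 466, 436 and 439 FPKM in Taz KO and 470.4, 427 and 448 FPKM in control. Rps3a1, Rps3a2 and Rps3a3 are near-identical copies, and their reads may have been split between them.

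Among 8 tested paralogs, 3 (37.5%) were lower in double KO than in control and 0 higher, beside 12.9% and 12.4% of all tested genes, with a median of -0.37. Rps27l, a p53-induced copy of Rps27, was at 159, 94.9 and 161 FPKM in double KO, 254, 149 and 253 FPKM in Taz KO and 242, 220.4 and 295 FPKM in control (log2 fold change -0.90, SE 0.26, adjusted p = 0.0358). Its parent Rps27 was at 1066, 1053 and 1026 FPKM in double KO and 1150.5, 1007 and 1121 FPKM in control (log2 fold change -0.06, SE 0.08, adjusted p = 0.614), with overlap. Rpl36al was at 51.3, 40.2 and 45.97 FPKM in double KO and 74.3, 55.8 and 74.5 FPKM in control (log2 fold change -0.56, SE 0.16, adjusted p = 0.0349), and Rpl7l1 at 86.0, 73.2 and 82.2 FPKM in double KO and 105, 99.7 and 112 FPKM in control (log2 fold change -0.39, SE 0.11, adjusted p = 0.0336). Rps27l and Rpl7l1 lost the call in every fit without a double KO library or a control library. Rpl36al lost it without double KO 2 or 3, or control 1 or 3. With the replicate block 6 of the 8 paralogs were lower and 1 was higher, where 28.1% of all tested genes were lower and 24.2% higher. The higher one was Rpl10l, the germline copy of X-linked Rpl10. It was at 16.7, 14.6 and 13.7 FPKM in double KO and 13.2, 9.72 and 9.43 FPKM in control (adjusted p = 0.0637 without the block and 0.000585 with it). Rpl22l1 (log2 fold change -0.28, adjusted p = 0.381), Rsl24d1 (log2 fold change -0.23, adjusted p = 0.311), Rpl39l (log2 fold change -1.12, adjusted p = 0.0649) and Rpl3l (log2 fold change -0.35, adjusted p = 0.391) did not pass, and of them Rpl22l1, Rsl24d1 and Rpl39l did with the block (adjusted p = 0.0149, 0.00341 and 0.00269). Rpl39l and Rpl3l had as few as 10 reads in a library.

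Genes that serve the ribosome were compared in the same fit. Of 75 tested mitochondrial ribosomal protein genes, which make the separate ribosome of mitochondria, 32 (42.7%) were lower in double KO than in control and 0 higher, beside 12.9% and 12.4% of all tested genes, with a median of -0.37. Mrpl36 was at 26.0, 19.5 and 20.6 FPKM in double KO and 42.0, 39.6 and 39.3 FPKM in control (log2 fold change -0.87, adjusted p = 0.00186). Mrps24 was at 16.6, 13.2 and 14.8 FPKM in double KO and 31.0, 24.3 and 25.3 FPKM in control (log2 fold change -0.83, adjusted p = 0.00921). Mrpl28 was at 34.3, 28.6 and 31.5 FPKM in double KO and 58.3, 49.6 and 56.0 FPKM in control (log2 fold change -0.79, adjusted p = 0.0019). The count was 59 lower and 2 higher with the replicate block, which called 28.1% of all tested genes lower and 24.2% higher. Of 40 assembly factors 5 (12.5%) were lower and 0 higher, with a median of -0.31. That share was near the one of all tested genes. With the block 27 were lower and 1 higher. The 5 were Nop10, a protein of the complex that pseudouridylates ribosomal RNA (log2 fold change -0.85, adjusted p = 0.0165), Bop1, of the PeBoW complex of large-subunit assembly (log2 fold change -0.72, adjusted p = 0.0356), Rrp9 (log2 fold change -0.59, adjusted p = 0.0275), Noc2l (log2 fold change -0.52, adjusted p = 0.00124) and Wdr12. Nop10 was at 48.4, 30.3 and 44.5 FPKM in double KO and 73.1, 71.8 and 74.3 FPKM in control.

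A further list held 16 genes whose messages carry TOP motifs. Most encode translation factors, but Hnrnpa1, Nap1l1, Npm1 and Tpt1 do not. Of the 16, 3 (18.8%) were lower in double KO than in control and 1 was higher. Over all tested genes the shares were 12.9% and 12.4%, and the median of the list was -0.21. Eef1d (log2 fold change -0.58, adjusted p = 0.0346), Eif3l (log2 fold change -0.41, adjusted p = 0.0349) and Eif2s3x (log2 fold change -0.21, adjusted p = 0.0495) were lower. Tpt1, the abundant protein TCTP encoded on chromosome 14, was at 588, 582 and 547 FPKM in double KO, 499, 494 and 470.1 FPKM in Taz KO and 449.9, 447 and 486 FPKM in control and was higher (log2 fold change 0.31, adjusted p = 0.0146). With the replicate block the counts were 10 lower and 1 higher, where 28.1% of all tested genes were lower and 24.2% higher. Of 15 genes of RNA polymerase I and its factors, the subunit gene Znrd1 was lower (log2 fold change -0.48, adjusted p = 0.00575) and Taf1c, on chromosome 8, was higher (log2 fold change 0.49, adjusted p = 0.00302). With the block 5 of these 15 were lower and 2 higher, beside the same 28.1% and 24.2% of all tested genes.

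Among 20 regulators of ribosome production and of TOP translation, 3 were lower and 3 higher in double KO than in control. The shares were near those of all tested genes. Eif4ebp1, a translation inhibitor switched off by mTORC1 and encoded on chromosome 8, was at 177, 134 and 166 FPKM in double KO, 300.1, 197 and 283 FPKM in Taz KO and 271, 228 and 289.8 FPKM in control (log2 fold change -0.72, SE 0.18, adjusted p = 0.0191). Mycn, a driver of ribosome genes, was at 23.1, 16.8 and 23.5 FPKM in double KO, 38.9, 25.9 and 36.2 FPKM in Taz KO and 36.9, 26.8 and 33.6 FPKM in control (log2 fold change -0.61, SE 0.19, adjusted p = 0.0461). Mnt, a repressor that competes with MYC proteins for their partner MAX, was at 21.3, 22.9 and 22.5 FPKM in double KO, 13.6, 15.4 and 15.004 FPKM in Taz KO and 14.2, 14.1 and 13.1 FPKM in control (log2 fold change 0.67, SE 0.07, adjusted p = 0.000584). The S6 kinase family gene Rps6ka1 was lower (log2 fold change -0.33, adjusted p = 0.0124), and Rictor (log2 fold change 0.46, adjusted p = 0.0131), of mTORC2, and Tsc1 (log2 fold change 0.50, adjusted p = 0.0149), an inhibitor of mTORC1, were higher. With the replicate block 6 of the 20 regulators were lower and 4 higher, near the 28.1% and 24.2% of all tested genes. Mycn had its lowest value in library 2 of each group and lost its call in 7 of the 9 fits without 1 library. Of the 21 genes outside the family that the naming rule gave for double KO against control, 6, 10 and 9 lost the call when double KO 1, 2 or 3 was left out, 2, 0 and 2 when Taz KO 1, 2 or 3 was left out, and 14, 4 and 12 when control 1, 2 or 3 was left out. Mnt, Mrpl28, Mrpl36, Mrps24, Rps6ka1, Taf1c and Znrd1 were called in all 9 fits.

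**Figure D5:**
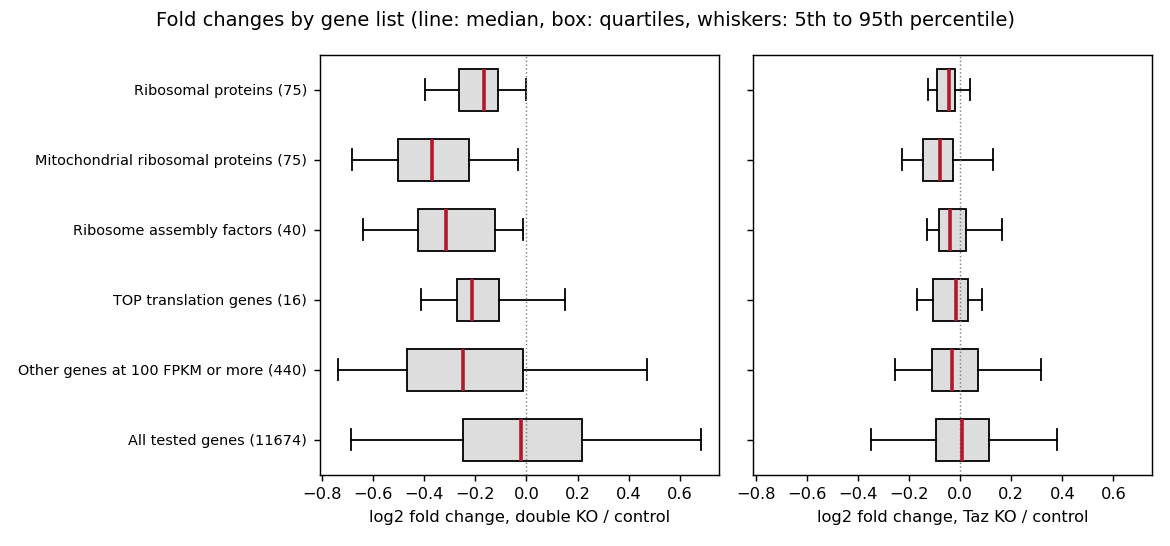
Log2 fold changes of double KO over control (left) and Taz KO over control (right) by gene list, with the number of genes in brackets, the median (line), quartiles (box) and 5th to 95th percentile (whiskers). In double KO over control the ribosomal protein genes have a median of -0.16 and the mitochondrial ribosomal protein genes -0.37. The other genes at 100 FPKM or more have -0.25 and all tested genes -0.02. In Taz KO over control the same lists have -0.05, -0.08, -0.03 and 0.01. After quantile normalization, in double KO over control, the ribosomal protein genes have -0.01 and the other genes at 100 FPKM or more -0.035.

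Double KO against Taz KO gave 7 lower and 0 higher of 75 mitochondrial ribosomal protein genes, and 2 lower and 0 higher of 40 assembly factors. These shares lie around the 7.45% of all tested genes called lower. Mrps24 (log2 fold change -0.70, adjusted p = 0.0297), Mrps16 (log2 fold change -0.62, adjusted p = 0.00812), Nop10 (log2 fold change -0.78, adjusted p = 0.0351) and Noc2l (log2 fold change -0.47, adjusted p = 0.00465) were among them. Of the regulators, Eif4ebp1 was lower (log2 fold change -0.69, adjusted p = 0.0351) and Mnt (log2 fold change 0.59, adjusted p = 0.00305) and Rictor (log2 fold change 0.39, adjusted p = 0.0377) were higher. With the replicate block these counts were 56 mitochondrial genes and 29 assembly factors lower, and 5 regulators lower and 3 higher, where 25.6% of all tested genes were lower and 16.8% higher. Taz KO against control gave 0 calls in any of these lists by limma or voom. Limma called only 0.565% of all tested genes lower and 0.72% higher there, so 0 calls in lists of this size say little. At an unadjusted p under 0.05, 1 mitochondrial gene was higher and 1 lower, and 1 assembly factor was higher. At that level 1 gene of the TOP list was lower and 2 polymerase I genes were higher. Of all tested genes, 4.81% were lower and 8.03% higher at that level. With the block 2 mitochondrial genes were higher and 4 lower, and 2 assembly factors and 2 polymerase I genes were higher. In the TOP list 1 gene was lower with the block. Of all tested genes the block called 4.05% lower and 7.78% higher.

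Fold changes were then set beside the start sequences. The median log2 fold change of double KO against control was -0.18 for the 33 genes with a run of 5 or more C or T within 10 bases of the start and -0.14 for the others with a record. Of the 14 called genes with a record, 9 had the run and 5 had the stricter pattern, against 33 and 23 of all 55. Genes with the ETS letters had a median of -0.18 and those without -0.14, and genes with the TEAD letters had -0.16 and those without -0.17. No test was made of these splits.

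Copies of these genes limit how exactly their levels are known. The table lists 214 ribosomal pseudogene rows, of which 21 passed the level limit, and together they held 135 to 170 FPKM in double KO, 122 to 183 FPKM in Taz KO and 126 to 197 FPKM in control. Processed copies are near-identical to their parents, so reads may have been split or dropped between them, and the treatment of reads with several matches is not given in the sources used here.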

How the data were processed

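The authors deposited the RNA-seq of 9 libraries as 1 table of FPKM. Tools listed in the submitters' processing notes are DESeq2, HTSeq 0.6.1 and TopHat2 2.1.1, with mm10 as build and no roles stated, and the annotation release is not given in the sources used here. A gene's FPKM divided by the worth of a single read came out whole (tolerance 0.001) for 24621 of 24621 genes above 0, and the reads so recovered totalled 19.1 to 24.0 M per library. The worth of a read followed a median-of-ratios size factor, so the columns share a scale set by the typical gene, and no column was left over. The number of reads limits the precision of low values only, since members other than Rpl24 had at least 4051 reads in each library. Lengths follow from the worth of a read and were within 0.01 base of a whole number for 99.2% of genes, and positions come from GENCODE M21.

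The test was limma 3.58.1 (R 4.3.3), run on log2(FPKM + 0.5) for 11674 genes with a mean of at least 1 FPKM, in 1 model of 3 group means over all 9 libraries with a variance trend. Tests were two-sided with Benjamini-Hochberg adjustment over all genes tested and a threshold of 0.05. Adjusted p-values in the text are limma's, log2 fold changes carry the same pseudocount of 0.5 and understate changes at low levels, and a fold is the ratio of the mean FPKM of both groups. The procedure was tested on simulated data. Alternatives changed the pseudocount, filter, scaling, variance trend, samples, block and count model (voom on recovered reads).

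The members and lists were chosen with earlier results of these data known. Named genes are up to 8 members with the largest called rise and fall per comparison, the 5 highest and 5 lowest, the stalk, members on chromosomes 6, 8 and 14, up to 3 called genes per direction in each other list, the ribosomal genes outside the rule, the paralogs, and the 5 closest patterns. Rps6, Rps25, Rps13, Rps21, Rps27, Rpl5, Rpl9, Rpl19, Rpl27a, Rpl35, Rpl37a, Noc2l in double KO against control, Wdr12, the row RPL24, the stem cell markers and the genes whose start windows are shown were named after their values were seen. The values of 2 genes that this rule names are not reported here, and counts include them.

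Libraries with the same number deviated together from their group means: correlations were 0.192 to 0.711 in 9 such pairs and -0.688 to 0.394 in 18 others. The pairing was read from the values. What the number marks is not in the labels. No replicates agreed within sampling noise (chi-square per gene at least 4.71 in each pair), so all 9 libraries were counted.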

Additional observations from a re-analysis of the deposited data

How the results depend on the processing

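The results named here were recomputed under each alternative. Members lower in double KO than in control numbered 18. The count was 6 with no filter on low values, 9 after quantile normalization and 6 to 22 without 1 library. With no filter more genes enter both the variance trend and the adjustment. Members higher numbered 0, against 1 at an equal sum of FPKM and 2 after quantile normalization. Members lower in double KO than in Taz KO numbered 5, against 0 with no filter, 1 in a fit of only the 2 groups compared and 0 to 10 without 1 library. Members higher in Taz KO than in control numbered 0, against 2 after quantile normalization. Other pseudocounts (0.1 and 1), a limit of 5 FPKM, no variance trend, voom and leaving out the genes of chromosomes 6, 8, 14 and Y kept each of these counts within 1.5 times. The cause of the changed counts was not tested.

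With the replicate block, lower members numbered 37 and higher members 1 in double KO against control, 3 were higher in Taz KO against control, and 25 were lower in double KO against Taz KO. Without the 3 libraries numbered 2, an alternative chosen after seeing the data, those counts were 52, 1, 1 and 33. For none of the 18 members called lower in double KO against control did the block end the call.

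In double KO against control, 31 of the 75 log2 fold changes turned sign after quantile normalization, 9 at an equal sum of FPKM, 0 to 4 without 1 library and 1 without the libraries numbered 2, and none of them belonged to the 18 called. Of the members whose levels are given, Rplp2, Rps6, Rpl5 and Rpl15 turned after quantile normalization, and Rps12, Rps27 and Rpl15 at an equal sum of FPKM. Rpl15, at -0.07, was 0.00596 at an equal sum of FPKM and 0.133 after quantile normalization. In Taz KO against control, without 1 library, it lay between -0.0297 and 0.121, and Rps24 between -0.0672 and 0.0699. Rps24 was -0.0388 there without the libraries numbered 2.

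The calls rest on 3 libraries a group, library 2 of the control and Taz KO groups lies low for most members, and member differences of under 0.25 on the log2 scale between double KO and control did not pass the test.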
